A study of Oryctolagus cuniculus with 17 samples.

Results

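The nuclear genes for the subunits of the mitochondrial respiratory chain and ATP synthase were followed in the lungs of newborn preterm rabbits kept in high oxygen or in room air. Members were the table entries whose human gene name had the form used for subunits of complexes I to V (NDUFA, NDUFB, NDUFC, NDUFS and NDUFV followed by a number, UQCR, SDHA to SDHD, COX4 to COX8 and ATP5), with the entry of the highest total count kept for each symbol. This gave 64 genes of the 13827 listed, with 28 subunits in complex I, 3 in complex II, 4 in complex III, 13 in complex IV and 16 in complex V. The choice used no expression difference. NDUFA4 was counted with complex IV, and the ATP synthase inhibitor ATP5IF1 and the supercomplex factor COX7A2L were kept because their symbols fitted the form.

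All 17 animals were New Zealand White rabbits delivered preterm at 28 days of gestation and fed by orogastric tube with milk replacer. Hyperoxia-treated animals (HT) breathed 95% oxygen and normoxia-treated animals (NT) breathed 21% oxygen, and the right lung was taken whole on day 3, 5 or 7, so HT3, NT3, NT5, HT7 and NT7 held 3 animals each and HT5 held 2. RNA came from homogenised lung, in which fewer cells of a type and less RNA per cell cannot be told apart. Nothing in the sources used here says whether animals of a group came from separate litters, and p-values measure the spread between these samples.

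Counts per library, with each locus counted once, ran from 13123731 to 18111086, and the scaling factors (TMM) from 0.958 to 1.05. Levels are given as counts scaled to a library of 1000000 (CPM), which are not adjusted for gene length and are therefore compared between samples only. All 64 genes passed the filter on low counts, and 13142 genes were tested in all. Reads of 10 of the 64 could not be assigned with certainty, because 5 shared a locus with another gene whose counts the table repeats (NDUFV2 with ANKRD12, NDUFB2 with ADCK2, NDUFB6 with TOPORS, COX6A2 with ITGAD and ITGAX, ATP5MK with RBM3) and 6 had a listed span under 500 bases (NDUFA3, UQCRFS1, COX6C, COX7A2, ATP5ME and again ATP5MK). The other 54 are called unambiguous. The genes lay on 18 numbered or X chromosomes (42 genes) and on unplaced scaffolds (22 genes) of rabbit genome OryCun2.0. Lung identity was visible in 9 surfactant and other alveolar type 2 genes, which summed to between 12844 and 33536 CPM in all libraries.

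In respiration, complex I takes electrons from NADH and complex II from succinate, complex III hands them from ubiquinol to cytochrome c, and complex IV delivers them to oxygen. Protons pumped along the way drive complex V, the ATP synthase. Most subunits are built from nuclear genes and joined in the inner membrane to a few made by the mitochondrion itself, and the transcripts of the latter were not analysed here. Some complex IV subunits exist as a ubiquitous form and a tissue-restricted form, among them COX4I2, which is known for its expression in lung.

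The first question was how subunit transcripts differed between hyperoxia and normoxia on each day. On day 7 they were mostly higher in hyperoxia: 38 of the 64 were upregulated and 3 were downregulated at an adjusted p below 0.05 (edgeR quasi-likelihood test, Benjamini-Hochberg over all genes tested), whereas 23.7% of all tested genes were called higher and 23.7% lower. The members' shares were 59.4% and 4.69%. The median log2 fold change (log2FC, HT over NT) was 0.49 over the members and -0.01 over all tested genes, and the members called higher had log2FC between 0.33 and 1.26. Every HT7 animal was above every NT7 animal for 39 members and below for 3, compared with 27.3% and 27.2% of all genes.

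On day 5, 13 members were upregulated and 2 downregulated, when 15.9% of all genes were called higher and 15.4% lower. The share called higher, 20.3%, lay near that background, and the share called lower, 3.12%, lay under it. The median log2FC was 0.19 against -0.02 over all genes. The HT5 animals were both above all NT5 animals for 27 members and both below for 6, compared with 26.5% and 29.2% of all genes. The count called higher rested on few animals, since it was 4 without HT5 replicate 2, 6 without NT5 replicate 2 and 8 without HT5 replicate 1 or NT5 replicate 3, and the count called lower was 4 without HT5 replicate 1. With the replicate number as a block, 8 members were called higher and 2 lower. Beside these calls, 6 of 13 skeletal muscle markers rose and 2 fell on day 5, 5 of 8 endothelial markers fell and 1 rose, and 6 of 14 markers of cycling cells fell and 1 rose. In HT5 the skeletal muscle markers summed to 488 CPM in replicate 1 and 72.5 in replicate 2, and the endothelial markers to 1283 to 1368 CPM against 2185 to 2735 in NT5. The cycling cell markers summed to 356 and 635 CPM in HT5 against 835 to 996 in NT5, and the part of these cells was not tested.

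On day 3, 1 member was upregulated and 0 were downregulated by edgeR, against 0.517% of all genes in each direction, and with the replicate block 0 were called higher. At an unadjusted p below 0.05, 3 members were higher and 1, COX4I2, lower, which is 6.25% of the members against 15.3% of all genes. DESeq2 called NDUFV2 and SDHA higher and COX4I2 lower, 4.69% of the members against 3.84% of all genes. The median log2FC was 0.11 against 0.00 over all genes. The HT3 animals were all above the NT3 animals for 7 members and all below for 1, where 12.8% and 13.9% of all genes were so placed. With a stricter threshold, an adjusted p below 0.01, 28 members were higher and 2 lower on day 7 (16.7% and 16.9% of all genes), 4 and 2 on day 5 (8.56% and 7.62%) and 0 and 0 on day 3 (0.0989% and 0.107%). Asking in addition for a log2FC beyond 2 left COX4I2 and COX7A1 lower on day 7, as it did 2.84% of all genes, and no other call, where it kept 1.75% of all genes higher on day 7, 0.822% higher and 0.761% lower on day 5, and 0.0533% higher and 0.00% lower on day 3.

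The 13 members upregulated on day 5 were all among the 38 of day 7, and the 2 downregulated on day 5 were among the 3 of day 7. The matching share over all genes called on day 5 was not counted, so this overlap may not be particular to the members.

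**Figure D1:**
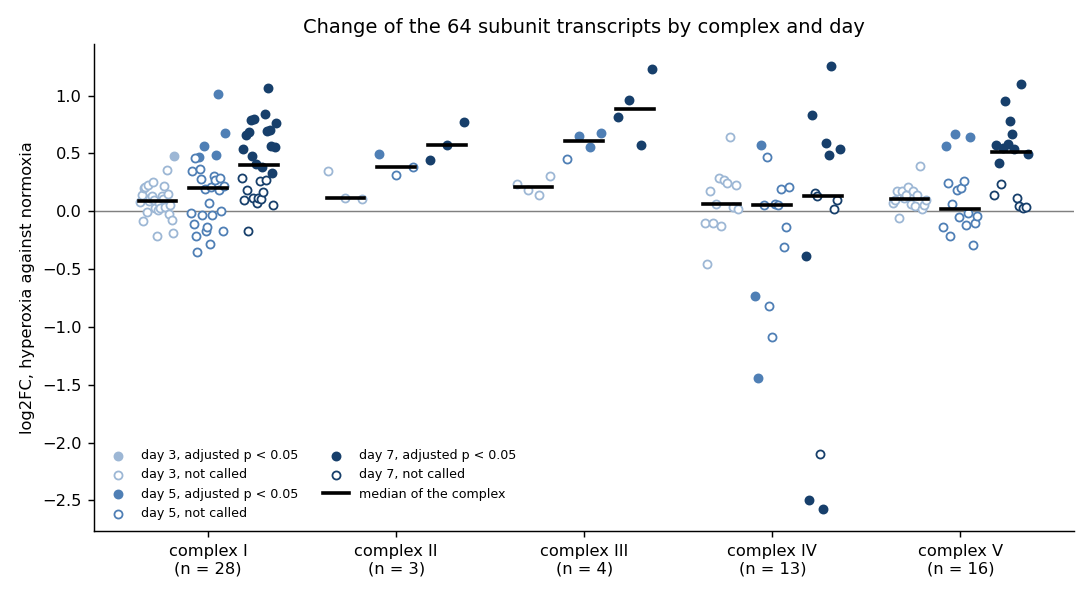
Log2 fold change (hyperoxia over normoxia, y axis) of each of the 64 subunit genes on days 3, 5 and 7, arranged by complex on the x axis. Filled points passed the test and bars are medians, which on day 7 were 0.40 for complex I, 0.57 for II, 0.89 for III, 0.14 for IV and 0.52 for V.

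By complex, the day 7 calls were 16 of 28 higher in complex I, 3 of 3 in complex II, 4 of 4 in complex III and 10 of 16 in complex V, all without a call in the other direction, while complex IV had 5 higher and 3 lower of 13. The median log2FC followed the days upward in complexes I (0.09, 0.20 and 0.40 on days 3, 5 and 7), II (0.11, 0.39 and 0.57) and III (0.21, 0.60 and 0.89). Complex IV had 0.07, 0.05 and 0.14, and complex V 0.11, 0.02 and 0.52. The complex IV median of day 5 had no stable sign. It was -0.017 without HT5 replicate 1, -0.041 over unambiguous members and -0.13 with NDUFA4 moved to complex I and COX7A2L left out. The complex V median of day 5 depended on HT5, being -0.10 without replicate 1 and 0.26 without replicate 2. The complex IV median was between 0.042 and 0.23 on day 7, without HT7 replicate 3 and without HT7 replicate 2, and between 0.022 and 0.20 on day 3, without NT3 replicate 3 and without HT3 replicate 2. The day 3 medians of complexes I, II and V also moved by over 1.5 times with single libraries, to 0.04 (without HT3 replicate 1) and 0.19 (without HT3 replicate 2) in I, 0.072 (without HT3 replicate 3) and 0.22 (without NT3 replicate 3) in II, and 0.05 and 0.18 (without HT3 replicates 1 and 2) in V, as did that of complex I on day 5, to 0.13 without HT5 replicate 1.

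The same was seen animal by animal in the median over each complex of the log2 CPM minus its mean over the 17 libraries. For complex I this was 0.34 ± 0.17 (SD, n = 3) in HT7 and -0.06 ± 0.05 (n = 3) in NT7. For complex III it was 0.63 ± 0.37 in HT7 and -0.22 ± 0.08 in NT7, and for complex IV 0.21 ± 0.10 and 0.03 ± 0.02 (SD, n = 3 each). By this median the lowest HT7 animal lay above the highest NT7 animal in all 5 complexes. By summed CPM, which the most abundant subunits set, complex IV overlapped, with 740, 633 and 586 in HT7 and 688, 681 and 685 in NT7, so 2 of the 3 HT7 animals were below every NT7 animal.

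**Figure D2:**
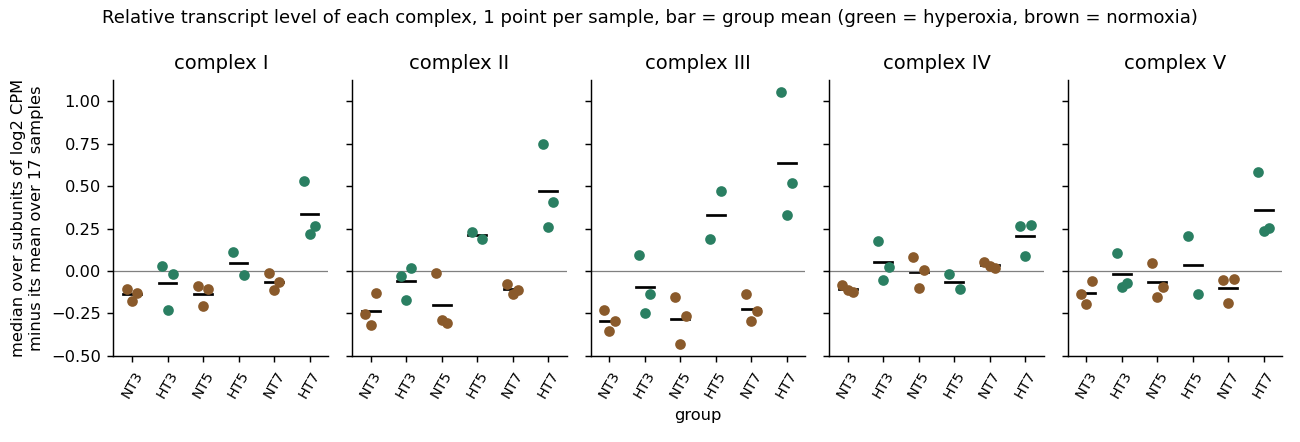
Median over the subunits of each complex of log2 CPM minus that gene's mean over 17 samples (y axis), 1 point per animal, by group (x axis), with green for hyperoxia, brown for normoxia and a bar at the group mean. HT7 lay above NT7 in every complex, with 1 HT7 animal highest in complexes I, II, III and V.

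Summed over the 54 unambiguous genes, the level was 4347 to 5040 CPM in HT3 and 4178 to 4472 in NT3, 4736 and 5281 in HT5 and 4181 to 4635 in NT5, and 5589 to 7120 in HT7 and 4352 to 4649 in NT7. The groups overlapped on day 3 and did not overlap on days 5 and 7. HT7 animals also differed more among themselves, with a median coefficient of variation over the members of 17.7% against 8.45% in NT7. HT7 replicate 1 was the highest of its group for 55 of the 64 genes, and without it 29 members were called higher on day 7. Those then lost were ATP5IF1, ATP5PO, COX7A2, COX7A2L, NDUFA7, NDUFB1, NDUFB5, NDUFS4 and UQCRFS1. Of them, the log2FC of ATP5PO went from 0.50 to 0.29 and that of NDUFS4 from 0.33 to 0.21. Of the 41 calls of day 7, 30 held with every single library left out.

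Marker genes of other cell types were read beside these values, on a day when 23.7% of all genes were called in each direction. Of 8 endothelial markers, 6 fell on day 7 and their sum was 928 to 1299 CPM in HT7 and 2337 to 2748 in NT7. Of 10 macrophage markers, 3 rose and 1 fell, with sums of 2095 to 2604 and 1242 to 1495 CPM. Of 7 neutrophil markers tested, 2 rose and 1 fell. The 8 listed summed to 2834 CPM in HT7 replicate 1 and 946 and 1264 in the other HT7 animals, against 815 to 994 in NT7. Among the other lists, 3 of 12 ciliated cell markers fell and 1 rose (199 to 275 against 344 to 430 CPM), 4 of 6 erythroid markers fell (54.8 to 76.8 against 129 to 234), 2 of 9 alveolar type 2 markers fell and 1 rose (13746 to 29994 against 17582 to 23604), and 2 of 14 markers of cycling cells rose (427 to 706 against 308 to 857). The part of these cell types in the subunit levels was not tested.

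In complex I the upregulated subunits on day 7 included 4 of 4 core subunits, those that carry the electrons, and 12 of 24 accessory subunits, which surround them. NDUFS1, which holds iron-sulfur clusters in the NADH-oxidising arm, is listed on chromosome 7 from 146914976 to 146948695. Its level was 138, 101 and 117 CPM in HT3 and 88.7, 92.3 and 97.3 in NT3, 178 and 202 in HT5 and 90.9, 83.5 and 107 in NT5, and 207, 179 and 197 in HT7 and 105, 79.9 and 93.7 in NT7. All hyperoxia animals of a day were above all normoxia animals of that day, and normoxia stayed within a narrow band. The log2FC was 0.36 ± 0.13 (SE, adjusted p = 0.212) on day 3, 1.02 ± 0.14 (adjusted p = 0.000303) on day 5 and 1.07 ± 0.13 (adjusted p = 2.45e-05) on day 7, that is 2.02-fold and 2.09-fold on the later days.

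NDUFV2, an iron-sulfur subunit next to the site of NADH oxidation, was the member called on day 3. It had 168, 184 and 191 CPM in HT3 and 124, 127 and 138 in NT3, 207 and 239 in HT5 and 142, 135 and 140 in NT5, and 235, 231 and 234 in HT7 and 141, 132 and 139 in NT7. The groups did not overlap on any day. Its log2FC was 0.48 ± 0.08 (SE, adjusted p = 0.0141), 0.68 ± 0.09 (adjusted p = 0.000211) and 0.76 ± 0.08 (adjusted p = 8.37e-06) on days 3, 5 and 7. With the replicate number as a block, which pairs same-numbered animals of each day, the day 3 value was 0.48 with adjusted p = 0.0725. The day 3 call was also lost without HT3 replicate 2, NT3 replicate 1 or NT3 replicate 2 (log2FC 0.45 to 0.47, adjusted p 0.0639 to 0.0884). ANKRD12 is listed with the same counts, so these reads may belong to either gene.

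NDUFS3, a core subunit of the arm that passes electrons to ubiquinone, had 119, 81.0 and 97.6 CPM in HT7 and 70.7, 60.6 and 70.2 in NT7. The groups were apart, with HT7 replicate 1 highest. It rose by a log2FC of 0.56 ± 0.13 (SE, adjusted p = 0.00257) on day 7, and on day 5 its log2FC was 0.29 and did not pass (adjusted p = 0.135).

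Among accessory subunits of complex I, NDUFB8, in the membrane arm, had 149, 113 and 124 CPM in HT7 and 79.4, 65.5 and 70.3 in NT7. All HT7 animals were above all NT7 animals, and the log2FC was 0.84 ± 0.12 (SE, adjusted p = 9.1e-05). NDUFA9, at the joint of the arms, had 69.6 and 76.1 CPM in HT5 and 50.2, 48.2 and 49.2 in NT5, and 95.6, 66.3 and 80.3 in HT7 and 47.5, 42.2 and 49.7 in NT7. It rose by 0.57 ± 0.15 (adjusted p = 0.0117) on day 5 and 0.80 ± 0.14 (adjusted p = 0.000302) on day 7, and the day 5 call was lost without HT5 replicate 2 (log2FC 0.49, adjusted p = 0.124). The accessory subunits also called higher on day 7 were NDUFA5, NDUFA6, NDUFA7, NDUFA10, NDUFA12, NDUFB1, NDUFB5, NDUFC1, NDUFS4 and NDUFS6, with log2FC from 0.33 for NDUFS4 to 0.79 for NDUFA6. The 12 that did not pass were NDUFA1, NDUFA2, NDUFA3, NDUFA8, NDUFA11, NDUFB2, NDUFB3, NDUFB4, NDUFB6, NDUFB9, NDUFB11 and NDUFS5, with log2FC from -0.17 for NDUFA3 to 0.29 for NDUFA1. The median day 7 log2FC was 0.73 over the core and 0.31 over the accessory subunits.

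Complex II, succinate dehydrogenase, was represented by 3 subunits. SDHA, the flavoprotein that oxidises succinate, had 232, 196 and 203 CPM in HT3 and 165, 160 and 170 in NT3, 231 and 238 in HT5 and 185, 153 and 159 in NT5, and 264, 235 and 249 in HT7 and 194, 180 and 174 in NT7. Hyperoxia was above normoxia on all 3 days with no overlap. The log2FC was 0.35 ± 0.09 (SE, adjusted p = 0.0937) on day 3, 0.50 ± 0.11 (adjusted p = 0.00298) on day 5 and 0.45 ± 0.10 (adjusted p = 0.0014) on day 7.

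SDHB, the iron-sulfur subunit, had 109, 72.4 and 86.0 CPM in HT7 and 61.3, 56.1 and 62.1 in NT7. SDHC, a membrane anchor, had 172, 126 and 130 CPM in HT7 and 84.3, 82.6 and 84.1 in NT7. In both, all HT7 animals were above all NT7 animals, and the log2FC was 0.57 ± 0.13 (SE, adjusted p = 0.0027) for SDHB and 0.77 ± 0.14 (adjusted p = 0.000388) for SDHC. On day 5 their log2FC was 0.31 (adjusted p = 0.122) and 0.39 (adjusted p = 0.0665).

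The 4 complex III subunits rose together on day 7. UQCRC1, a core protein on the matrix side, had 266, 277 and 232 CPM in HT3 and 263, 204 and 213 in NT3, 293 and 345 in HT5 and 212, 192 and 205 in NT5, and 592, 338 and 385 in HT7 and 247, 221 and 209 in NT7. HT3 and NT3 overlapped and the later groups did not, with HT7 replicate 1 far above the others. The log2FC was 0.19 ± 0.17 (SE, adjusted p = 0.651), 0.65 ± 0.19 (adjusted p = 0.0171) and 0.96 ± 0.17 (adjusted p = 0.000401). The day 5 call was lost without HT5 replicate 2 or NT5 replicate 2 (log2FC 0.52 to 0.63, adjusted p 0.0505 to 0.176).

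UQCRQ, a small accessory subunit of complex III, had 14.0 and 19.3 CPM in HT5 and 11.9, 8.53 and 10.9 in NT5, and 32.8, 19.5 and 25.0 in HT7 and 11.5, 10.5 and 11.0 in NT7. The groups were apart on both days, and the log2FC was 0.68 ± 0.23 (SE, adjusted p = 0.035) on day 5 and 1.23 ± 0.21 (adjusted p = 0.000251) on day 7, or 2.34-fold. The day 5 call was lost without HT5 replicate 2, NT5 replicate 2 or NT5 replicate 3 (log2FC 0.41 to 0.71, adjusted p 0.0636 to 0.366), with the log2FC of 0.41 being that without HT5 replicate 2. UQCRB, near the site of ubiquinone binding, rose by 0.82 ± 0.19 (adjusted p = 0.00301) on day 7, and UQCRFS1, the Rieske iron-sulfur protein, by 0.57 ± 0.17 (adjusted p = 0.0126). The listed UQCRFS1 entry has a short span and is one of the uncertain ones.

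**Figure D3:**
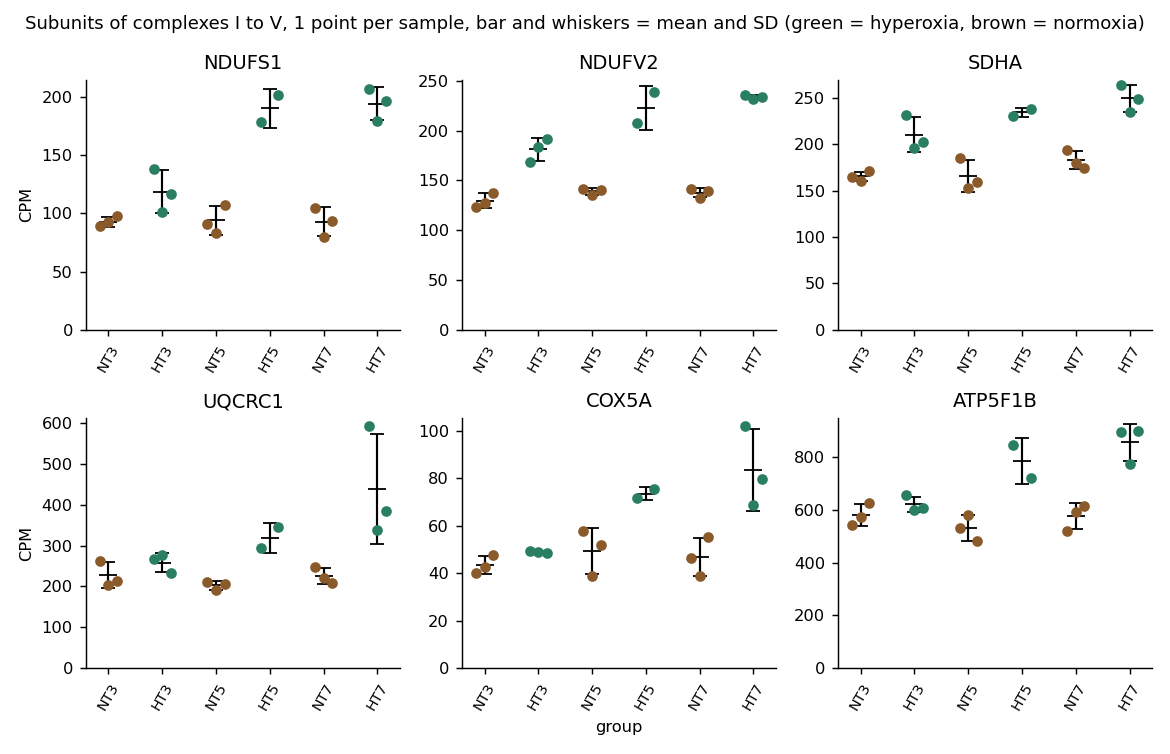
CPM (y axis) of 6 subunits, NDUFS1, NDUFV2, SDHA, UQCRC1, COX5A and ATP5F1B, 1 point per animal in each group (x axis), with the mean and SD, green for hyperoxia and brown for normoxia. In each of the 6 the HT5 and HT7 animals lay above the normoxia animals of the same day.

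Complex IV, cytochrome c oxidase, differed in direction among its subunits. COX5A, a subunit on the matrix side, rose like the subunits above, with 71.6 and 75.4 CPM in HT5 and 57.7, 38.6 and 51.9 in NT5, and 102, 68.6 and 79.6 in HT7 and 46.5, 38.9 and 55.1 in NT7. The groups were apart on both days, and the log2FC was 0.57 ± 0.18 (SE, adjusted p = 0.0274) on day 5 and 0.83 ± 0.17 (adjusted p = 0.000882) on day 7. The day 5 call was lost without HT5 replicate 1, HT5 replicate 2 or NT5 replicate 2 (log2FC 0.44 to 0.61, adjusted p 0.0573 to 0.167).

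NDUFA4, assigned to complex IV, rose by 0.54 ± 0.13 (SE, adjusted p = 0.0039) on day 7, COX7A2 by 0.59 ± 0.22 (adjusted p = 0.0348) and COX7A2L, which joins complexes III and IV, by 0.49 ± 0.17 (adjusted p = 0.028). COX7B, a small membrane subunit, had the largest log2FC of the members called higher, 1.26 ± 0.41 (adjusted p = 0.0213), from 18, 21 and 14 counts in HT7 and 8, 3 and 8 in NT7. That call rested on few counts and was lost without HT7 replicate 2 or NT7 replicate 2 (log2FC 0.93 to 1.07, adjusted p 0.0663 to 0.0931). It was also lost with DESeq2 (adjusted p = 0.0525), and in edgeR with the replicate block (0.0605) or the samples of day 7 alone (0.0679). COX5B, COX8A and COX6C did not pass on day 7, and COX6C, at 0.392 to 17.4 CPM, had the widest spread between animals.

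Subunit IV, an early component in assembly, is encoded by the ubiquitous COX4I1 and the lung form COX4I2, and both were lower in hyperoxia. COX4I2, listed on chromosome 4 from 7576705 to 7583060, had 45.4, 40.1 and 42.1 CPM in HT3 and 57.8, 51.9 and 65.2 in NT3, 16.2 and 14.2 in HT5 and 36.7, 49.0 and 37.9 in NT5, and 7.50, 8.65 and 6.76 in HT7 and 41.4, 45.3 and 42.8 in NT7. Hyperoxia was below normoxia on every day with no overlap, and the gap widened with the days. The log2FC was -0.45 ± 0.13 (SE, adjusted p = 0.114) on day 3, -1.44 ± 0.16 (adjusted p = 6.23e-05) on day 5 and -2.50 ± 0.14 (adjusted p = 1.43e-07) on day 7, when the level was 17.7% of that in normoxia. Leaving out any single library moved the day 7 value only between -2.59 and -2.41.

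COX4I1 had 319, 272 and 284 CPM in HT3 and 335, 303 and 302 in NT3, 211 and 161 in HT5 and 305, 301 and 322 in NT5, and 290, 267 and 207 in HT7 and 328, 330 and 340 in NT7. The groups overlapped on day 3, and hyperoxia was below normoxia on days 5 and 7. The log2FC was -0.10 (adjusted p = 0.745) on day 3, -0.73 ± 0.14 (SE, adjusted p = 0.00193) on day 5 and -0.39 ± 0.13 (adjusted p = 0.0194) on day 7. The day 7 call was lost without HT7 replicate 3 or NT7 replicate 3 (log2FC -0.37 to -0.25, adjusted p 0.0534 to 0.110), the value without HT7 replicate 3 being -0.25.

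The ratio of the 2 isoforms is free of library scaling. Per 100 COX4I1 counts there were 14.2, 14.7 and 14.8 COX4I2 counts in HT3 and 17.2, 17.1 and 21.6 in NT3. There were 7.65 and 8.83 in HT5 and 12.0, 16.3 and 11.8 in NT5, and 2.59, 3.24 and 3.27 in HT7 and 12.6, 13.7 and 12.6 in NT7. The ratio was lower in every hyperoxia animal than in any normoxia animal of its day. The difference in mean log2 ratio was -0.34 on day 3, -0.69 on day 5 and -2.10 on day 7. Its mean over the days was -1.04, with p = 0.00025 in an exact two-sided permutation test of oxygen labels within days, the smallest p that its 4000 divisions allow. Labels were shuffled freely within a day. Keeping same-numbered animals as pairs would leave fewer divisions and a larger smallest p. The 1 ratio was the only one tested.

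**Figure D4:**
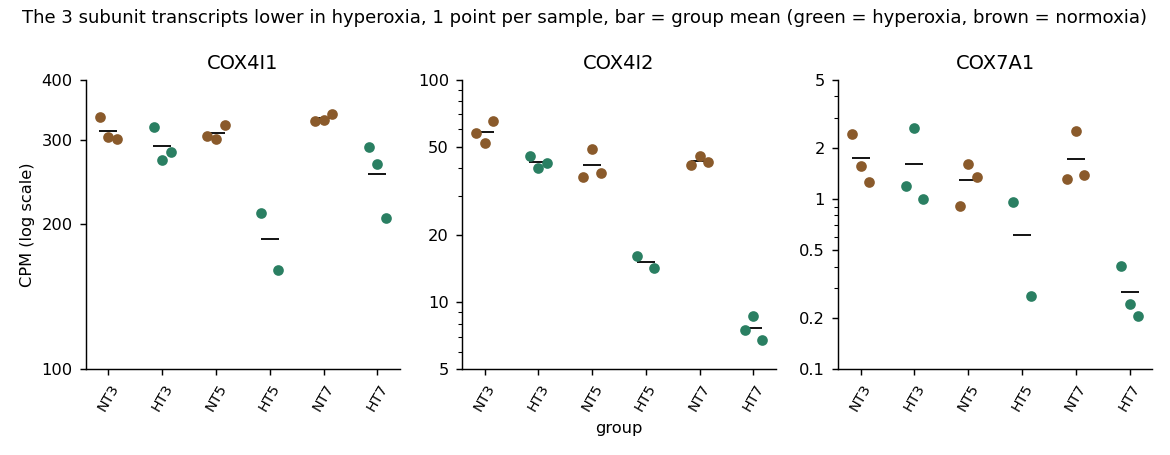
CPM on a log axis (y) of COX4I1, COX4I2 and COX7A1 by group (x axis), 1 point per animal, green for hyperoxia and brown for normoxia. COX4I2 lay between 6.76 and 8.65 CPM in HT7 and between 41.4 and 45.3 in NT7, and COX4I1 lay between 207 and 290 in HT7 and between 328 and 340 in NT7.

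Markers of smooth muscle and pericytes, mural cells of vessels and airways, were read beside COX4I2. Of 14, 7 fell and 2 rose on day 7, against 23.7% of all genes in each direction. Their sums were 1153 to 1407 CPM in HT7 and 1484 to 1974 in NT7. On day 5 also 7 fell and 2 rose, against 15.4% and 15.9% of all genes. The sums were then 1307 and 1926 in HT5 and 1735 to 2064 in NT5. The pericyte gene HIGD1B had 6.92, 11.9 and 3.28 CPM in HT7 and 33.5, 29.8 and 31.8 in NT7 (log2FC -2.11, adjusted p = 0.000103), whereas KCNJ8 had a log2FC of -0.11 (adjusted p = 0.799). The part of these cells and of endothelial cells in the level of COX4I2 was not tested.

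COX7A1, the striated muscle form of subunit VIIa, had 1.30, 2.50 and 1.37 CPM in NT7 and 0.404, 0.242 and 0.205 in HT7, from 19, 37 and 22 counts and 7, 4 and 4 counts. No HT7 animal reached the NT7 range, and the log2FC was -2.58 ± 0.56 (SE, adjusted p = 0.00162), with values from -2.91 to -2.21 when single libraries were left out. It was not called on day 3 or day 5 (log2FC -0.12 and -1.08, adjusted p = 0.934 and 0.176).

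The other tissue-restricted forms, COX6A2 of striated muscle and COX8C of testis, did not pass on any day. COX6A2 ran from 14.2 to 55.8 CPM with overlapping groups and shared its locus with 2 integrin genes. COX8C had log2FC of 0.22, -0.13 and 0.09 on days 3, 5 and 7. On day 7, when 23.7% of all genes were called in each direction, 1 of 13 skeletal muscle markers rose and 2 fell. The 13 summed to 71.6 to 85.1 CPM in HT7 and 127 to 155 in NT7, but to 607 CPM in HT3 replicate 2 and 488 in HT5 replicate 1. Their median log2FC was 3.39 on day 5 and 3.13 on day 3. Of 10 heart muscle markers tested, 1 rose and 2 fell on day 7, and the 12 listed summed to 15.0 to 28.4 CPM in HT7 and 34.4 to 37.3 in NT7. The part of muscle tissue in the level of COX7A1 was not tested.

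In complex V the rise on day 7 covered the membrane-embedded c ring, most membrane accessory subunits, the inhibitor and some parts of the head and stalk. ATP5F1B, the catalytic beta subunit, had 655, 601 and 606 CPM in HT3 and 542, 572 and 627 in NT3, 846 and 722 in HT5 and 532, 579 and 483 in NT5, and 894, 774 and 898 in HT7 and 520, 593 and 616 in NT7. Day 3 overlapped, and the hyperoxia animals of days 5 and 7 were above the normoxia animals. The log2FC was 0.10 (adjusted p = 0.722), 0.56 ± 0.12 (SE, adjusted p = 0.00306) and 0.57 ± 0.11 (adjusted p = 0.000572). ATP5F1A, the alpha subunit that alternates with beta in the head, had 567, 599 and 499 CPM in HT7 and 525, 479 and 502 in NT7, with overlap and a log2FC of 0.14 ± 0.12 (adjusted p = 0.346). On day 5 its log2FC was -0.13 (adjusted p = 0.479).

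ATP5MC1, which encodes subunit c of the rotating ring, had 61.5 and 52.1 CPM in HT5 and 41.4, 33.2 and 32.1 in NT5, and 84.8, 67.8 and 67.5 in HT7 and 41.7, 32.6 and 39.2 in NT7. The groups were apart on both days, with log2FC of 0.67 ± 0.19 (SE, adjusted p = 0.0171) and 0.96 ± 0.18 (adjusted p = 0.000494). ATP5MC3, another gene for the same subunit, rose by 0.58 ± 0.11 (adjusted p = 0.000625) on day 7. ATP5PB, subunit b of the peripheral stalk, had 63.3 and 50.2 CPM in HT5 and 37.0, 32.8 and 39.0 in NT5, and 87.3, 75.0 and 57.0 in HT7 and 35.5, 33.1 and 34.0 in NT7. It was also apart on both days, with log2FC of 0.64 ± 0.21 (adjusted p = 0.0321) and 1.10 ± 0.19 (adjusted p = 0.000343). The day 5 call of ATP5PB was lost without any 1 of the 5 libraries (log2FC 0.47 to 0.79, adjusted p 0.0504 to 0.189), and that of ATP5MC1 without HT5 replicate 1 or 2 or NT5 replicate 2 or 3 (log2FC 0.55 to 0.77, adjusted p 0.0508 to 0.0991).

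ATP5IF1, which inhibits the enzyme when it runs backwards, had 92.0, 67.5 and 58.0 CPM in HT7 and 50.9, 44.3 and 53.6 in NT7. The ranges were close but apart, and the log2FC was 0.55 ± 0.17 (SE, adjusted p = 0.0173). The call was lost without HT7 replicate 1 or NT7 replicate 2 (log2FC 0.34 to 0.47, adjusted p 0.0721 to 0.112), the value without HT7 replicate 1 being 0.34.

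The remaining complex V subunits called higher on day 7 were ATP5F1C, the central stalk (0.42), ATP5PO, which links stalk and head (0.50), and the membrane subunits ATP5ME (0.78), ATP5MF (0.67) and ATP5MG (0.53), all as log2FC. ATP5PO was the member called higher whose HT7 and NT7 ranges overlapped, with 299, 198 and 211 CPM against 200, 148 and 155. ATP5F1E, ATP5MJ, ATP5MK, ATP5PD and ATP5PF did not pass, with log2FC from 0.03 to 0.24. ATP5MK was read at the locus of the RNA-binding gene RBM3 and had 435, 367 and 224 CPM in HT7 and 321, 290 and 383 in NT7. Peripheral stalk subunits ran from 0.03 for ATP5PD and 0.04 for ATP5PF to 1.10 for ATP5PB.

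A second question was whether the subunits changed with age within each oxygen level. In normoxia 0 of 64 members were called higher and 0 lower between NT3 and NT7 by edgeR, against 0.00% of all genes, with 1 member (1.56%) at an unadjusted p below 0.05 against 6.27% of all genes, and with DESeq2 calling 0 members and 39 genes in all. In hyperoxia 36 were higher and 2 lower in HT7 than in HT3, against 22.3% and 22.0% of all genes. SDHC (log2FC 0.84 ± 0.14 SE, adjusted p = 0.000277) and UQCRQ (1.08 ± 0.21, adjusted p = 0.000749) were among those higher, and COX4I2 (-2.48 ± 0.14, adjusted p = 1.97e-07) and COX7A1 (-2.47 ± 0.56, adjusted p = 0.00246) were those lower. Without HT3 replicate 2 or HT7 replicate 1 the count higher was 24. In the same comparison 10 of 13 skeletal muscle markers fell and 1 rose, and 4 of 10 heart muscle markers fell and 1 rose. Of 14 markers of cycling cells, 11 rose. The part of these cells in the subunit levels was not tested.

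The test of the difference between the day 7 and day 3 effects of oxygen called 12 members higher and 2 lower, against 9.52% and 11.0% of all genes. The 12 were NDUFS1, NDUFS3, NDUFA6, NDUFB8, NDUFC1 and NDUFS6 of complex I, SDHC of complex II, UQCRC1 and UQCRQ of complex III and ATP5F1B, ATP5MC1 and ATP5MF of complex V, and the 2 were COX4I2 and COX7A1. With the replicate block, which pairs same-numbered animals of each day, the calls of COX7A1 (adjusted p = 0.0740), UQCRQ (0.0759), ATP5F1B (0.0829) and NDUFC1 (0.0647) were lost. The count higher was 3 without HT3 replicate 2, NT3 replicate 3, HT7 replicate 1 or NT7 replicate 2, 7 without HT3 replicate 3, NT3 replicate 1 or NT7 replicate 3, and 21 without HT7 replicate 2. The count lower was 1 without HT3 replicate 2, NT3 replicate 2, NT3 replicate 3, HT7 replicate 3 or NT7 replicate 2. The log2FC was larger on day 7 than on day 5 for 59 of 64 members (92.2%) and for 49.8% of all genes, and 34 members had it in the order of the days, as did 26.1% of all genes.

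Genes that build or serve the complexes were read from lists, against 23.7% of all genes called in each direction on day 7, and 15.9% higher and 15.4% lower on day 5. Of 52 assembly factors tested, 31 rose and 1 fell on day 7 (median log2FC 0.59), 22 rose and 1 fell on day 5 (0.47), and they had a median log2FC of 0.09 on day 3. By complex, 10 of 18 factors rose for complex I on day 7, 1 of 2 for complex II, 4 of 6 for complex III, 15 of 22 for complex IV and 1 of 4 for complex V. LRPPRC, which stabilises mitochondrial messenger RNAs, had 299, 262 and 316 CPM in HT7 and 159, 136 and 146 in NT7 (log2FC 0.99, adjusted p = 6.13e-05). COX18, which inserts a complex IV core subunit, had 24.7, 14.7 and 26.8 CPM in HT7 and 7.18, 5.87 and 7.23 in NT7 (log2FC 1.71, adjusted p = 9.36e-05). Both were apart between the groups. DMAC2 and NDUFAF3 of complex I (log2FC 0.80 and 0.61), SDHAF2 of complex II (0.58), UQCC1 and UQCC2 of complex III (0.80 and 0.90) and ATPAF2 of complex V (0.98) also rose. COX20 was the complex IV factor that fell, by 0.49 on the log2 scale (adjusted p = 0.034).

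Complex IV assembly factors thus had a median log2FC of 0.68 on day 7 where the complex IV subunits had 0.14. Of the 17 electron carrier genes and subunit paralogs, 11 rose and 3 fell on day 7. NDUFA4L2, a paralog of NDUFA4, fell from 15.2, 23.2 and 20.6 CPM in NT7 to 3.98, 4.41 and 1.59 in HT7 (log2FC -2.57 ± 0.34 SE, adjusted p = 3.97e-05), and on day 5 by 2.05 on the log2 scale (adjusted p = 0.00148). COQ8A, needed for ubiquinone synthesis, fell by 1.59 on the log2 scale (adjusted p = 9.61e-05). NDUFA4 itself had 99.6, 79.6 and 79.8 CPM in HT7 and 62.4, 54.2 and 61.6 in NT7, so the pair moved in opposite directions.

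Of 17 import genes, 10 rose on day 7 (median 0.51), and TIMM17A, a channel component, had 87.0, 47.3 and 62.8 CPM in HT7 and 32.7, 29.3 and 30.4 in NT7 (log2FC 1.09, adjusted p = 0.000168). Of 12 mitochondrial chaperones and proteases, 7 rose and 2 fell (median 0.43). HSPA9, the matrix chaperone that pulls proteins in, had 606, 380 and 607 CPM in HT7 and 143, 112 and 139 in NT7 (log2FC 2.02, adjusted p = 1.02e-05). HSPD1, the matrix chaperonin, rose by 1.43 (adjusted p = 3.91e-06), and TIMM44, which tethers HSPA9 to the import channel, by 0.96 (adjusted p = 7.84e-05). Of the 21 regulators of mitochondrial biogenesis, 3 were higher and 5 lower (median 0.00), against 23.7% of all genes in each direction, so neither count stood out from the background. PPRC1, a coactivator, rose by 1.40 (adjusted p = 2.71e-05) and POLG, the mitochondrial DNA polymerase, fell by 0.71 on the log2 scale (adjusted p = 0.000892). PPARGC1A, the best known coactivator of the programme, had 3.35, 9.01 and 4.25 CPM in HT7 and 8.82, 10.2 and 9.03 in NT7, which overlapped (log2FC -0.76, adjusted p = 0.0558). The transcription factors TFAM and NRF1 did not pass (0.37 and -0.28, adjusted p = 0.0734 and 0.107), and GABPA fell by 0.41 on the log2 scale (adjusted p = 0.0171).

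**Figure D5:**
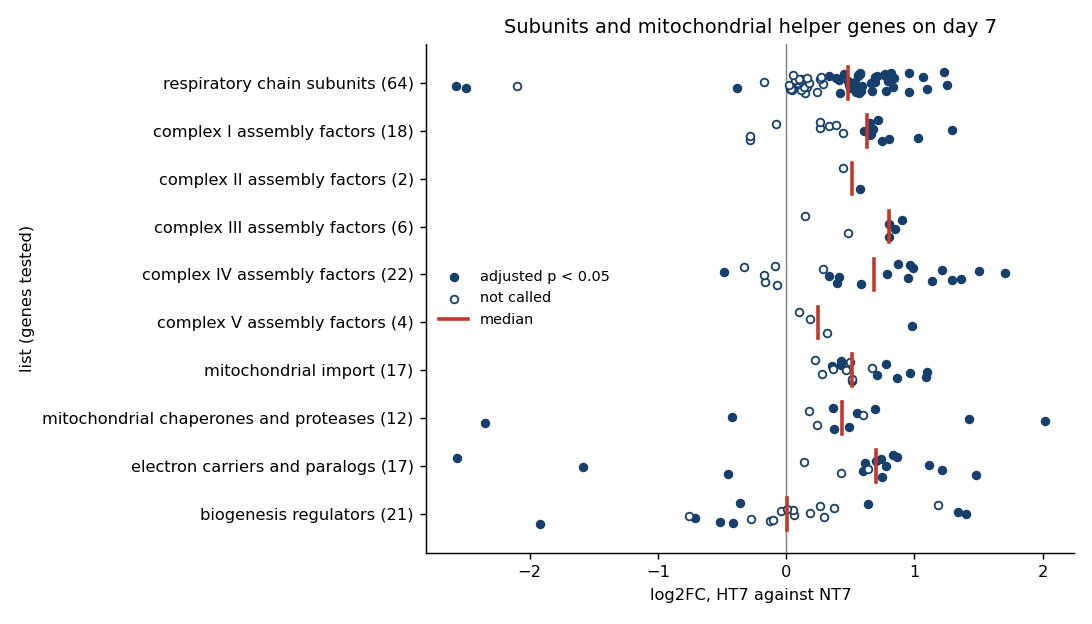
Day 7 log2 fold change (hyperoxia over normoxia) of the subunits and of 9 lists of genes that assemble or serve them, 1 point per gene, filled where the gene passed the test, with a bar at the median. Medians ran from 0.00 for the biogenesis regulators to 0.80 for complex III assembly factors.

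Uncertain reads carried few of the calls. Of the 38 members upregulated on day 7, 4 were ambiguous (ATP5ME, COX7A2, NDUFV2 and UQCRFS1), as were 2 of the 13 on day 5 and the 1 on day 3. Among the 54 unambiguous genes 34 were higher and 3 lower on day 7, 11 and 2 on day 5, and 0 and 0 on day 3 by edgeR.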

How the data were processed

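Right lung RNA of 17 rabbits was sequenced. The authors deposited raw counts per gene. The submitters' notes name FastQC, STAR 2.7.10a and OryCun2.0, and the counting program and its strand setting are not given in the sources used here. Loci whose entries overlap are listed once per gene name, with the same counts repeated (13827 genes, 13313 loci). The members, gene lists and named-gene rule were chosen with earlier results of these data known. Named genes were the 8 called members with the largest change and no overlap per direction and day, tissue-restricted isoforms, complex II, complex I core subunits, the inhibitor and the 3 members of highest mean CPM; the 2 called genes of smallest day 7 p per helper list, PPARGC1A, NRF1, GABPA, TFAM and NDUFA4L2 were also named by rule. Other members, COX20, HIGD1B and KCNJ8 were chosen after their values were seen. The values of 1 member are not reported here, and it remains in the counts and medians.

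Counts were tested with edgeR 4.0.16 in R 4.3.3 (quasi-likelihood F test, TMM, filterByExpr, prior count 0.125, 6 group means over 17 samples, so HT5 with n = 2 borrows the common spread), with Benjamini-Hochberg adjustment over 13142 genes and a threshold of 0.05 without a fold minimum. CPM used TMM-scaled totals. DESeq2 1.42.0 was an alternative, as were other scalings, filters, thresholds, a trend on gene span, a replicate block and leaving out each library. Same-numbered day 3 animals deviated together (correlations over genes 0.1663, 0.1312 and 0.1988, each above 0.1), so the numbers were taken to pair day 3; neither labels nor methods say what they stand for. On simulated counts with 200 genes changed per day, day 7 changes of 0.5, 1.0 and 2.0 on the log2 scale were recovered for 16.42%, 67.16% and 93.94% of them. A change of 0.5 was recovered for 8.96% on day 3 and 5.97% on day 5. On days 5 and 7 the real data had far more called genes, which loosens the adjusted threshold, so these shares may understate recovery there. Small changes were often missed in the simulation, so a member that did not pass may still differ. Plots used Python 3.11 and matplotlib 3.10.9.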

Additional observations from a re-analysis of the deposited data

Results flagged for a closer look

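For 14 members the effect of oxygen on day 7 differed from that on day 3 by the test of the difference itself (edgeR interaction, Benjamini-Hochberg over 13142 genes). It was lower on day 7 for COX4I2 by 2.05 on the log2 scale (value -2.05, SE 0.19, adjusted p = 0.000105) and for COX7A1 (-2.45, SE 0.73, adjusted p = 0.0295). It was higher for UQCRQ (0.93, adjusted p = 0.0371), ATP5MC1 (0.84, adjusted p = 0.0285), UQCRC1 (0.77, adjusted p = 0.0364) and NDUFS6 (0.75, adjusted p = 0.0166). The same held for NDUFB8 (0.73, adjusted p = 0.0106), NDUFS1 (0.71, adjusted p = 0.0167), NDUFA6 (0.71, adjusted p = 0.0246), SDHC (0.66, adjusted p = 0.0275) and NDUFC1 (0.66, adjusted p = 0.0472). ATP5MF (0.60, adjusted p = 0.0367), NDUFS3 (0.59, adjusted p = 0.0357) and ATP5F1B (0.47, adjusted p = 0.0394) had the smallest differences of the 14. With the replicate block 4 of the 14 lost the call, COX7A1 (adjusted p = 0.0740), UQCRQ (0.0759), ATP5F1B (0.0829) and NDUFC1 (0.0647). With each of 12 libraries left out in turn, COX4I2, NDUFB8, NDUFS1 and NDUFS6 kept the call every time. The call was lost without any 1 of 10 libraries for UQCRQ and NDUFC1, of 8 for ATP5F1B, ATP5MF, NDUFS3 and UQCRC1 (0.50 for UQCRC1 without HT7 replicate 1), of 6 for ATP5MC1, and of 5 for COX7A1, SDHC and NDUFA6.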

How the results depend on the processing

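No called value changed sign under the alternatives run. The day 5 medians of complexes IV and V, 0.05 and 0.02, did change sign: complex IV was -0.0026 and complex V -0.016 with the replicate block, complex V was -0.0045 with upper-quartile factors and -0.017 without ATP5IF1, and complex IV was -0.017 without HT5 replicate 1 and -0.0065 without NT5 replicate 3. Of 43 calls for single genes, 33 held under every setting other than leaving out a library and 10 were lost under at least 1, and 26 held with every single library left out and 17 did not. On day 3 the count higher was 2 with DESeq2 (1 lower), and 0 with the replicate block, at adjusted p below 0.01, with log2FC beyond 2 in addition, or among unambiguous members. On day 5 it was 8 with the replicate block, 4 at adjusted p below 0.01 and 0 with log2FC beyond 2, where the count lower was also 0. On day 7, 0 members were higher with log2FC beyond 2. For the difference between days 7 and 3, adjusted p below 0.01 left 0 higher and 1 lower, and the replicate block 1 lower. For HT7 against HT3, adjusted p below 0.01 left 23 higher. The complex IV median of day 5 was -0.13 with NDUFA4 moved to complex I and COX7A2L left out, and -0.041 over unambiguous members. With the replicate block the day 7 counts were 36 higher and 3 lower, and calls lost were ATP5MC1 (adjusted p = 0.0720), ATP5PB (0.0732) and UQCRQ (0.0923) on day 5 and COX7B (0.0605) and COX7A2 (0.0960) on day 7, NDUFA5 (0.0625) and NDUFC1 (0.0626) on day 5, NDUFV2 (0.0725) on day 3, and COX7A1 (0.0740), UQCRQ (0.0759), ATP5F1B (0.0829) and NDUFC1 (0.0647) for the difference of days. With the samples of that day alone, 9 members were higher and 2 lower on day 5 and 33 higher and 2 lower on day 7. Among the 43, also lost were COX7B on day 7 with DESeq2 (0.0525), COX7B (0.0679) and COX4I1 (0.0641) on day 7 and COX5A (0.0728) and UQCRQ (0.0924) on day 5 with the samples of that day alone, and ATP5F1B for the difference of days with the trend on gene span removed (0.0645). Same-numbered animals of day 5 had correlations of deviations of 0.2639 and 0.1414, both above 0.1, and those of day 7 had 0.1736, 0.1092 and 0.0695. Closest to their own number were 6 of 6 samples on day 3, 3 of 4 on day 5 and 6 of 6 on day 7. Of the 15 calls of day 5, 5 were lost with the replicate block. The sets of unambiguous members, of the longest row per symbol and without normalization factors were added after the data were seen, and the last 2 gave 39 and 38 higher and 3 lower on day 7.

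Leaving out single libraries gave 0 to 1 members higher on day 3, 4 to 14 higher and 2 to 4 lower on day 5, 29 to 38 higher and 2 to 3 lower on day 7, 3 to 21 higher and 1 to 2 lower for the difference of days, and 24 to 37 higher and 2 to 3 lower for HT7 against HT3. Medians of log2FC on day 3 ran from 0.04 to 0.19 in complex I, 0.072 to 0.22 in II, 0.15 to 0.30 in III, 0.022 to 0.20 in IV and 0.05 to 0.18 in V. On day 5 they ran from 0.13 to 0.25, 0.31 to 0.47, 0.46 to 0.69, -0.02 to 0.06 and -0.10 to 0.26, and on day 7 from 0.31 to 0.46, 0.41 to 0.71, 0.63 to 1.03, 0.042 to 0.23 and 0.36 to 0.61, in the same order of complexes. The difference between hyperoxia and normoxia in the log2 ratio of COX4I2 to COX4I1, averaged over days, ran from -1.08 to -0.99. The causes of these shifts were not tested.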

Other observations

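The table held 16 further entries with the symbols of members, of which 13 were tested. On day 7, 2 of them were higher in hyperoxia, where 23.7% of all genes were: an ATP5MK entry away from the RBM3 locus, spanning 5948 bases, with a log2FC of 0.68 (adjusted p = 0.000309, 56.2 CPM in HT7 and 35.2 in NT7), and an ATP5IF1 entry spanning 2117 bases with 2.20 (adjusted p = 0.0475). That ATP5IF1 entry lay near the floor, with 1.56, 0.665 and 2.66 CPM in HT7 and 0.342, 0.202 and 0.498 in NT7, and 4.72 in NT3 replicate 3. On day 5, 1 entry was lower, as were 15.4% of all genes, a second ATP5MK entry of 177 bases. It too lay near the floor, with 0.344 and 0.0541 CPM in HT5 and 1.21, 0.827 and 0.465 in NT5. A second COX6C entry, spanning 13397 bases, did not pass on day 7 (log2FC 0.22).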
